A study of Mus musculus with 8 samples.

Results

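The genes described here encode the respiratory chain and the ATP synthase, from both the nuclear and the mitochondrial genome. They were chosen by symbol: names that begin with Nduf followed by a, b, c, s or v, the genes Sdha, Sdhb, Sdhc and Sdhd, names that begin with Uqcr, Cox4 to Cox8 or Atp5, and the protein-coding genes of the mitochondrial genome. Cox4i2, Ndufa4l2, the Ndufaf assembly factors and pseudogenes were left out. The rule found 96 of the 25509 genes in the table, 83 of the nuclear and 13 of the mitochondrial genome. A filter on low counts left 80 nuclear and 13 mitochondrial genes. The 3 genes below it, Cox7a1, Cox7b2 and Cox8c, are described with the cytochrome c oxidase isoforms.

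The study sequenced RNA from fibroblasts of the lung of wild-type C57Bl6/J mice, with no age stated in the labels used here. Cells negative for CD45, CD326 and CD31, the surface proteins used to set aside leukocytes, epithelium and endothelium, were sorted into CD249+ and CD249- fractions. CD249 is an aminopeptidase of the cell surface encoded by Enpep. The same number of cells of each fraction came from each lung, so the 4 mice, numbered 2, 7, 8 and 10, gave 4 libraries per fraction, and every mouse is its own control.

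The respiratory chain sits in the inner mitochondrial membrane. Complexes I and II pass electrons from NADH and succinate to ubiquinone, complex III passes them on to cytochrome c, and complex IV (cytochrome c oxidase) hands them to oxygen. Protons pumped by complexes I, III and IV return through the ATP synthase (complex V), which makes ATP. The catalytic core of each pumping complex is built partly from subunits made inside the mitochondrion, and complex II is nuclear throughout, so both genomes have to supply parts of the same machines.

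Libraries held between 23011383 and 31906414 counts, and 14524 genes were tested. Enpep itself was measured at 8.98 ± 5.62 CPM (counts scaled to the library total; SD, n = 4) in CD249- cells and at 241 ± 64.8 CPM in CD249+ cells. RNA of the cells removed by the gate was still present. Of 10 endothelial markers tested all 10 were lower in CD249+ cells, with summed levels of 10441 to 14083 CPM in the CD249- and 3296 to 6365 CPM in the CD249+ libraries. None of 8 leukocyte markers tested was called without regard to mouse, with a median log2 fold change of -0.75. Under a mouse block 4 were lower in CD249+ cells by edgeR: Ptprc (adjusted p = 0.0126), S100a8 (0.0341), Cd68 (0.0398) and Cd3e (0.0459). The summed level of the 8 was 1298 to 2327 CPM in the CD249- and 1064 to 3324 CPM in the CD249+ libraries, most of it Lyz2. Without Lyz2 it was 174.5 to 492 CPM in the CD249- and 153 to 236 CPM in the CD249+ libraries. Epithelial markers summed to 157 to 717 CPM and 411 to 8332 CPM, the highest being the CD249+ library of mouse 10, and 2 of 7 tested were higher in CD249+ cells, with Cdh1 (edgeR adjusted p = 0.0369) a further one under the block. All 8 markers of alveolar fibroblasts and all 8 of pericytes were higher in CD249+ cells. So were 5 of 6 general fibroblast and 4 of 5 smooth muscle markers, with Cnn1 (edgeR adjusted p = 0.00511) a further one under the block. General fibroblast markers summed to 8526 ± 3199 CPM in CD249- and 20610 ± 5214 CPM in CD249+ cells (SD, n = 4). Smooth muscle markers summed to 374 ± 238 and 1264 ± 474 CPM. The part of these cells in the results below was not tested, and in bulk RNA fewer cells of a type and less RNA per cell cannot be told apart.

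Most respiratory chain genes were not called different between the fractions, but for the mitochondrial genes this depended on pairing by mouse. Unless a block by mouse is named, calls here and below are from fits that left the pairing out. With edgeR's quasi-likelihood test and an adjusted p under 0.05 over all genes tested, 2 of the 93 members were higher in CD249+ cells, 12 were lower and 79 were not called. That is 15.1% of the members, against 30.8% of all genes tested (2455 higher and 2013 lower). Of all genes 16.9% were called higher and 13.9% lower. With the mouse as a block 3 members were higher and 28 lower, 33.3% of the 93, against 36.5% of all genes. The members' calls under the block were mostly lower, whereas 19.3% of all genes were called higher and 17.1% lower. The lower calls under the block were 16 of the 80 nuclear and 12 of the 13 mitochondrial members, and all 3 higher calls were nuclear. Without the block, the nuclear members held 2 of the higher and 11 of the lower calls, and the mitochondrial members held 1 lower call. The median log2 fold change, CD249+ over CD249-, was -0.12 over the 80 nuclear members, -0.56 over the 13 mitochondrial members and -0.02 over all genes tested. Small nuclear differences ran mostly downwards: 39 of 80 nuclear members were lower in CD249+ cells in all 4 mice, where 26.5% of all genes tested were. Scaled by library size alone, 25 nuclear and 4 mitochondrial members were called lower, with 2106 higher and 2689 lower calls over all genes and a median over all genes of -0.12. The 11 lower nuclear calls became 6 without mouse 7, 7 without mouse 8 and 3 without mouse 10. They became 7 without the CD249+ and 12 without the CD249- library of mouse 8. Lower calls over all genes, 2013 in the full fit, were 1341, 1201, 1291, 1630 and 1682 in the same fits. In mice 7 and 8 alone 2 nuclear members were lower and 2 higher, where 1251 and 1777 of all genes were. In mice 2 and 10 alone 0 were lower and 1, Cox6b2, was higher, where 98 and 570 of all genes were.

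**Figure D1:**
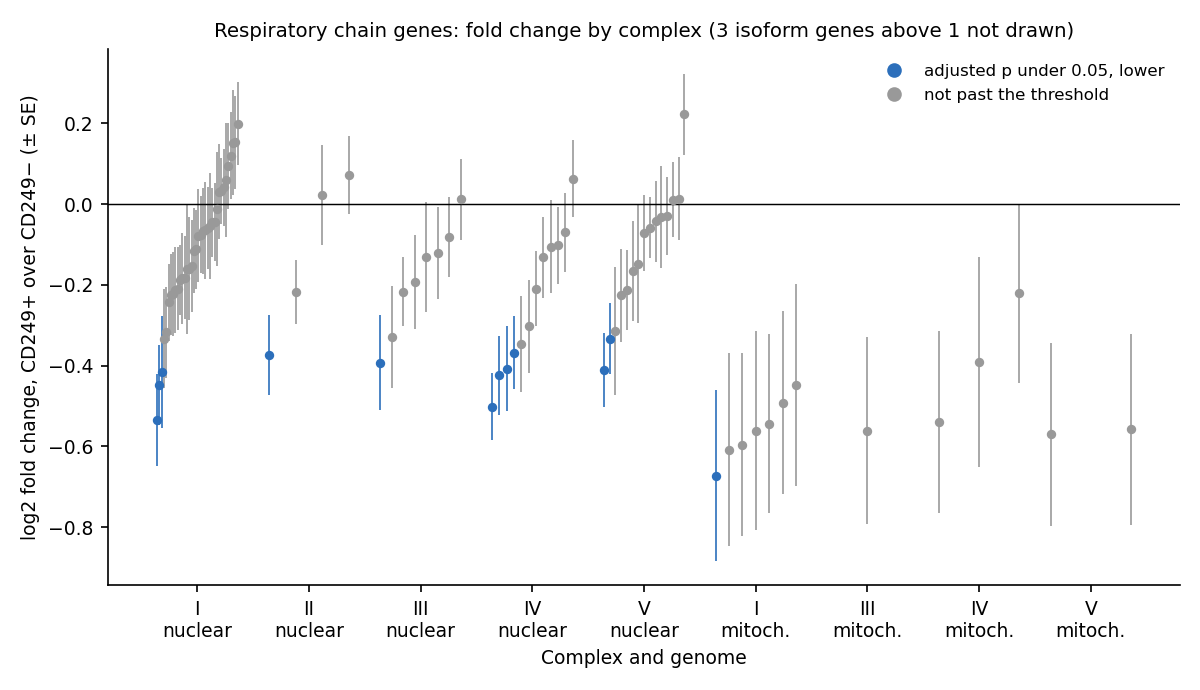
Fitted log2 fold change of each gene, CD249+ over CD249- (vertical axis, bars are the standard error of the fit), by complex and genome; n = 4 libraries per fraction, and Cox6b2, Cox8b and Cox6a2 (all above 1), Atp5s and Atp5sl are not drawn. The 11 nuclear genes in blue passed the threshold with changes between -0.53 and -0.33, and all 13 mitochondrial genes lie below 0.

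The 2 genes that rose were tissue isoforms of complex IV. Cox6b2, an isoform of subunit 6B best known from testis (ENSMUSG00000051811.14, chr7:4751792-4753094 on the minus strand, GRCm38), was measured at 2.22, 2.21, 3.59 and 3.78 CPM in the CD249- libraries of mice 2, 7, 8 and 10. In the CD249+ libraries of the same mice it stood at 24.8, 24.7, 21.7 and 30.4 CPM. The lowest CD249+ library lay far above the highest CD249- library. The fitted log2 fold change was 3.10 (SE 0.24, edgeR adjusted p = 1.63e-05), and the gene was higher in 4 of 4 mice. Of all genes tested, 17.8% had every CD249+ library above every CD249- library.

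Its widely expressed partner Cox6b1 did not pass the test. Cox6b1 was measured at 118 ± 15.6 CPM (SD, n = 4) in CD249- cells. In CD249+ cells it was at 96.0 ± 8.45 CPM, a log2 fold change of -0.30 (SE 0.11, edgeR adjusted p = 0.0729). Of the counts of the pair, Cox6b2 took 2.47% ± 0.793 in CD249- and 20.9% ± 2.28 in CD249+ cells. Divided by transcript length, the share went from 2.75% ± 0.881 to 22.8% ± 2.42 (SD, n = 4). Per length, Cox6b2 thus stood at 58.4 ± 8.34 CPM per kilobase in CD249+ cells, below Cox6b1 at 198 ± 17.4.

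Cox8b, the isoform of subunit 8 of heart and skeletal muscle (ENSMUSG00000025488.8, chr7:140898945-140900446 on the minus strand), was near the limit of detection in CD249- cells. It had 0, 2, 5 and 7 counts in the CD249- libraries of mice 2, 7, 8 and 10, and 76, 97, 54 and 70 counts in the CD249+ libraries. The groups did not overlap, and the fitted log2 fold change was 4.35 (SE 0.86, edgeR adjusted p = 0.00363), a value that rests on few CD249- counts. Even in CD249+ cells Cox8b was a minor isoform: it made up 1.94% ± 0.301 of the counts of Cox8a and Cox8b (SD, n = 4). Cox8a, the common form, was measured at 134 ± 6.08 and 128 ± 13.6 CPM and was not called (log2 fold change -0.07, edgeR adjusted p = 0.631). Both calls, of Cox6b2 and of Cox8b, held when each library or mouse was left out in turn.

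The other tissue isoforms matched by the rule were close to absent. Cox7b2, known from testis, had no count in the 4 CD249- libraries and 24 counts in the CD249+ libraries together, too few for the filter. Against a floor of 3 counts over the group it was at least 7.99-fold higher in CD249+ cells. When the filter was dropped, edgeR called it higher (adjusted p = 0.0403 over 18552 genes). Cox7a1, of heart and skeletal muscle, also fell below the filter, at 0.186 ± 0.0583 and 0.336 ± 0.153 CPM, and was not called with the filter dropped (edgeR adjusted p = 0.568). Cox8c, another testis form, had no count in any library. Cox6a2, a muscle isoform, was measured at 0.505 ± 0.165 CPM in CD249- and 1.09 ± 1.5 CPM in CD249+ cells and was not called (edgeR adjusted p = 0.408). Its CD249+ mean rested on mouse 10 at 3.32 CPM, and the log2 fold change of 1.11 became -0.54 without that library. Cox4i2 and Ndufa4l2, left out by the rule, were higher in CD249+ cells: 2.44 ± 1.01 against 27.7 ± 11.5 CPM, and 6.58 ± 1.58 against 18.5 ± 5.95 CPM (SD, n = 4). Their lowest CD249+ values, 10.9 and 9.87 CPM, were those of mouse 10. Both genes were also in the list of pericyte markers.

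**Figure D2:**
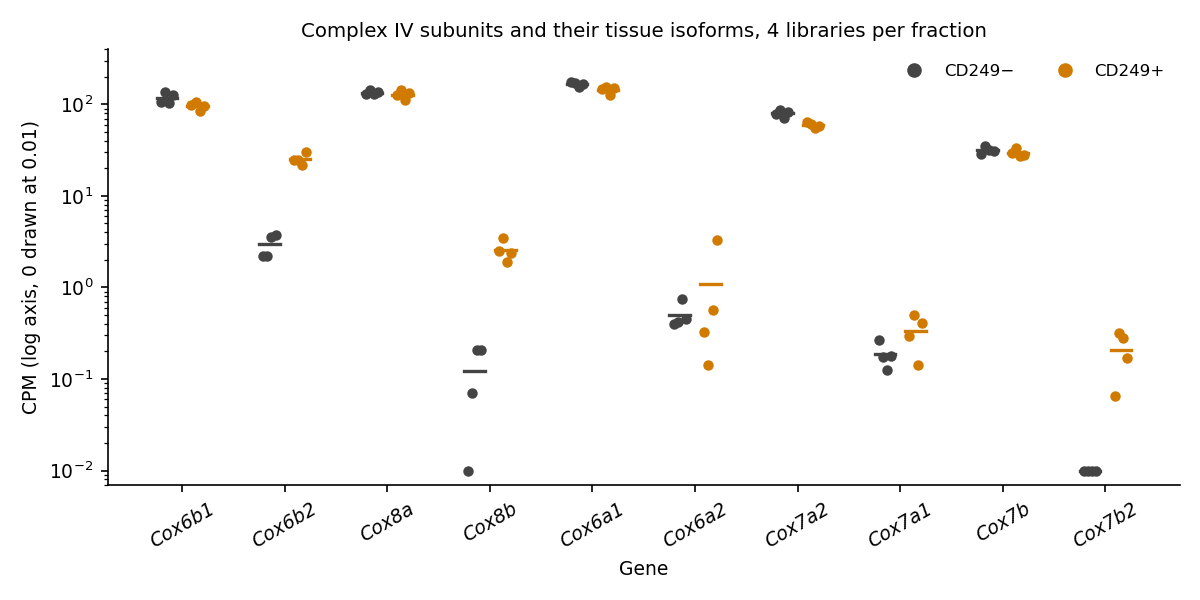
CPM of complex IV subunits and their tissue isoforms in each library (points; log axis, 0 drawn at 0.01), CD249- in dark and CD249+ in orange, 4 libraries per fraction. The CD249+ points of Cox6b2 lie between 21.7 and 30.4 CPM, above all CD249- points, while Cox6b1 and Cox8a overlap between the fractions.

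The isoform pairs are shown with their upstream sequence because 1 gene of each pair rose and the other did not. The stretches end at the annotated start of the gene, are written on the strand of the gene, come from RefSeq promoter windows of GRCm38.p6, and have every CG dinucleotide in capitals. They are Cox6b1 (chr7:30626152-30626314, minus), Cox6b2 (chr7:4753095-4753294, minus), Cox8a (chr19:7217617-7217816, minus) and Cox8b (chr7:140900447-140900646, minus).
Cox6b1: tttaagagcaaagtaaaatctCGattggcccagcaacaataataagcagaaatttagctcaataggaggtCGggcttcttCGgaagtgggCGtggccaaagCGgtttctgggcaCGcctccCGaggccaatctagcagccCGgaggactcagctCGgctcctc
Cox6b2: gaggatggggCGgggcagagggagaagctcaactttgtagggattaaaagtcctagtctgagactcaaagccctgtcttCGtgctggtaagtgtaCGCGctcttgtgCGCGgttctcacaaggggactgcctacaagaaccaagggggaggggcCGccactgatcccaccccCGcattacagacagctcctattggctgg
Cox8a: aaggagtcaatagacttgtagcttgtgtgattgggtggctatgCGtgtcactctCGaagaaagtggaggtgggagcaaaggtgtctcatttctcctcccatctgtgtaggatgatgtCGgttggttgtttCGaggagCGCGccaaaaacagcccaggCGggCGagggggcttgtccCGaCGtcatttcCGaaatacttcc
Cox8b: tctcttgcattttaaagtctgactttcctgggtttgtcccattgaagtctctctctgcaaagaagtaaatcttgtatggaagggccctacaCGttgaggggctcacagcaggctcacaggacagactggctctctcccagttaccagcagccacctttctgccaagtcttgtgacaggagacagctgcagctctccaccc
Cox6b1 has 9 CG in 163 bases, Cox6b2 has 8 in 200, Cox8a has 11 in 200 and Cox8b has 1 in 200. Over the 250 bases before the RefSeq start, the median was 14 CG for the 70 nuclear members with a promoter window and 6 for all 27025 genes with one. By the same count Cox6b1 had 14, Cox8a 11, Cox6b2 8 and Cox8b 1, so both isoforms that rose had fewer than their partners.

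Motifs of 4 factors known to act on respiratory chain genes were searched on both strands of the 300-base windows, which run from 250 before to 50 after the start. GCGCA followed by any base and GCGC, the NRF1 motif, was in 17 of 70 member windows (24.3%) and in 5.19% of all 27025. CCGGAAG, the GABPA motif, was in 22.9% of the members and 9.93% of all, and AAGATGGCG, the YY1 motif, was in 11.4% and 1.64%. TNAAGGTCA, the ESRRA motif, was in 4.29% and 1.43%. The GABPA and YY1 motifs share the letters AAG and may overlap. Among the 10 lower nuclear members with a window, 2 held the NRF1 motif, 4 the GABPA motif, 1 the YY1 motif and 0 the ESRRA motif. The windows of Cox6b2 and Cox8b held none of the 4. Nor did those of the common complex IV subunits Cox5a, Cox5b, Cox7a2, Cox7a2l, Cox7b, Cox7c and Ndufa4, none of which was called higher. Those of Cox6a1, Cox6b1 and Cox8a held the GABPA motif. As examples from common subunits, matches are in capitals in Cox6b1 (GABPA, chr7:30626126-30626152, minus), Cox8a (GABPA, chr19:7217605-7217631, minus), Ndufa8 (NRF1, chr2:36049349-36049378, minus) and Sdhb (GABPA, chr4:140961267-140961293, plus).
Cox6b1: cctctcgcagCTTCCGGccagtcggaa
Cox8a: ttccgaaataCTTCCGGctcgggcgtc
Ndufa8: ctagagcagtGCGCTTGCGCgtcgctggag
Sdhb: ctcggagaaaCCGGAAGcggccttcca
A match describes the letters only and says nothing of binding in these cells.

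The common subunits of complex IV held 4 of the 11 lower nuclear calls among 12 genes, 33.3% lower against 13.9% of all genes. Ndufa4, named for complex I but known as a subunit of complex IV and placed there here, was measured at 85.6, 93.9, 89.8 and 89.2 CPM in the CD249- libraries of mice 2, 7, 8 and 10. In the CD249+ libraries it stood at 65.9, 66.3, 60.2 and 60.7 CPM. It fell by 0.50 on the log2 scale (SE 0.08, edgeR adjusted p = 0.00142), with no overlap, and kept its call with each library or mouse left out. Cox7a2, a small subunit of the holoenzyme, fell from 79.8 ± 7.03 to 59.5 ± 3.8 CPM (SD, n = 4; edgeR adjusted p = 0.00858). Cox5a and Cox5b, which flank the catalytic core, fell from 58.6 ± 1.59 to 45.5 ± 3.39 CPM (edgeR adjusted p = 0.0120) and from 60.5 ± 6.42 to 45.6 ± 2.79 CPM (edgeR adjusted p = 0.0152). Cox5a shares 269 exonic bases with the antisense gene Gm26631. Cox4i1, the common form of subunit 4, was not called at 200.4 ± 21.4 and 183 ± 11.0 CPM, nor were Cox6c, Cox7b, Cox7a2l, Cox6a1 and Cox7c. Cox7a2 lost its call without mouse 10 (edgeR adjusted p = 0.0648), and Cox5a and Cox5b lost theirs without mouse 7 (0.0534 and 0.0592), mouse 8 (0.0664 and 0.0901) or mouse 10 (0.0544 and 0.0931). With the mouse as a block Cox7c (0.0196), Cox6b1 (0.0183) and Cox6a1 (0.0445) were also called lower.

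Complex I, the entry point for NADH electrons, had 3 lower and 33 uncalled genes among 36, 8.33% lower against 13.9% of all genes. None of its 7 nuclear core subunits was called, and their median log2 fold change was -0.05. The 3 calls were among the 29 accessory subunits, which are not part of the electron path. Ndufb7 was measured at 61.5, 81.4, 76.1 and 75.1 CPM in the CD249- libraries and 52.7, 54.3, 44.4 and 51.7 CPM in the CD249+ libraries of mice 2, 7, 8 and 10, and it fell by 0.53 on the log2 scale (SE 0.11, edgeR adjusted p = 0.00567). Ndufa8 was measured at 75.8, 81.0, 68.1 and 79.0 CPM against 51.1, 61.1, 53.0 and 57.5 CPM, and fell by 0.45 (SE 0.10, edgeR adjusted p = 0.00670). In both genes every CD249+ library was below every CD249- library, and both calls held with each library or mouse left out. Ndufa3 fell from 36.1 ± 3.57 to 27.1 ± 4.33 CPM (SD, n = 4; edgeR adjusted p = 0.0453). Its call was lost in 10 of the 12 leave-outs (adjusted p up to 0.194), all but those of the mouse 7 CD249+ and the mouse 8 CD249- library, and with DESeq2's size factors (0.0517) or no filter (0.0563). With the mouse as a block Ndufs5, an accessory subunit, was also called lower (edgeR adjusted p = 0.0473).

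Complex II, which also works in the citric acid cycle, has 4 subunits, and 1 (25%) was lower, against 13.9% of all genes. Sdhb, its iron-sulfur subunit, was measured at 119, 124, 103 and 121 CPM in the CD249- and 96.1, 83.4, 83 and 97.8 CPM in the CD249+ libraries of mice 2, 7, 8 and 10. The fractions did not overlap, and Sdhb fell by 0.37 on the log2 scale (SE 0.10, edgeR adjusted p = 0.0171). Sdhd, a membrane anchor, was at 93.1 ± 1.95 and 80.0 ± 4.13 CPM and did not pass (log2 fold change -0.22, edgeR adjusted p = 0.0642). Neither Sdha, the flavoprotein, nor Sdhc, the other anchor, was called, with log2 fold changes of 0.07 (SE 0.10) and 0.02 (SE 0.12). The Sdhb call was lost on leaving out mouse 7 (edgeR adjusted p = 0.109) or mouse 10 (0.0579), or the CD249+ cells of mouse 7 (0.0521) or mouse 8 (0.0537).

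Complex III had 1 lower gene among 8 nuclear members and none among the 3 core genes that match the rule, Uqcrc1, Uqcrc2 and Uqcrfs1. The share lower was 12.5%, near the 13.9% of all genes. Uqcrq, a small accessory subunit, was at 60.5 ± 7.28 CPM in CD249- and at 46.1 ± 4.52 CPM in CD249+ cells (SD, n = 4). It fell by 0.39 on the log2 scale (SE 0.12, edgeR adjusted p = 0.0289), in 4 of 4 mice. Its call was lost without mouse 7 (edgeR adjusted p = 0.0966), mouse 8 (0.0726) or mouse 10 (0.151). Among single libraries, leaving out CD249- cells of mouse 7 (0.0776) or mouse 10 (0.0676), or CD249+ cells of mouse 8 (0.0794) or mouse 10 (0.0787), ended it too. With the mouse as a block Uqcr11, another small subunit, was called lower as well (edgeR adjusted p = 0.0231).

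The ATP synthase had 2 lower genes among 15, both in the peripheral stalk that holds the catalytic head in place. The share lower was 13.3%, near the 13.9% of all genes. Atp5h, subunit d, was measured at 128, 149, 128 and 135 CPM in the CD249- and 102, 111, 96.5 and 95.9 CPM in the CD249+ libraries of mice 2, 7, 8 and 10. All CD249+ libraries were below all CD249- libraries, and it fell by 0.41 on the log2 scale (SE 0.09, edgeR adjusted p = 0.00707). Atp5j, coupling factor 6, fell from 148 ± 11.5 to 118 ± 5.23 CPM (SD, n = 4; edgeR adjusted p = 0.0168). Atp5j and Gabpa share 397 exonic bases on opposite strands, and in a library made without strand marking those reads cannot be told apart. None of the 5 genes of the catalytic head was called. Atp5b, the catalytic beta subunit, was at 692 ± 42.6 and 672 ± 37.5 CPM. Its partner Atp5a1, at 423 ± 16.6 and 494 ± 46.7 CPM, was called higher only with the mouse as a block (edgeR adjusted p = 0.0441, against 0.125 without it). None of Atp5g1, Atp5g2 and Atp5g3, which encode 1 identical mature c-ring subunit, was called, with log2 fold changes of -0.03, -0.15 and -0.06. Atp5s and Atp5sl match the rule by name but are not subunits, and neither was called. Atp5h lost its call without mouse 10 (edgeR adjusted p = 0.0571), and Atp5j lost it without mouse 2 (0.0551), 7 (0.0711) or 10 (0.113), and also when CD249+ cells of mouse 8 (0.0535) or CD249- cells of mouse 10 (0.0529) were left out.

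In all 11 lower nuclear genes the fractions did not overlap and the CD249+ library was lower in 4 of 4 mice. All 11 were also called lower with the mouse as a block (edgeR adjusted p from 0.00143 for Ndufa4 to 0.0213 for Uqcrq). The 11 were selected by their p in these same libraries, so neither result is separate support for them. The fits above that left out libraries or mice had no block. Over all 80 nuclear members tested, 21 had every CD249+ library below every CD249- library, where 15.8% of all genes tested did. The 5 genes Ndufs5, Uqcr11, Cox7c, Cox6b1 and Cox6a1, and Atp5a1, are named because the block changed their call and were chosen after their values were seen.

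The lower nuclear genes were short. Their transcripts were between 433 and 1142 bases, and 9 of the 11 were under 800 bases. Over the 76 nuclear members of at least 10 CPM in CD249- cells, the Spearman correlation of length with log2 fold change was 0.394, and over all 9601 genes of that level it was 0.064. This limit left out Cox6b2 (435 bases) and Cox8b (360 bases), the 2 members called higher. A limit on the CD249- level alone favours genes that are lower in CD249+ cells, among members and all genes alike. The length classes below use the same limit. Genes are not independent replicates and share the libraries, so these values are a description. Among genes under 800 bases, 9 of 41 members (22.0%) and 21.7% of all genes were lower, with medians of -0.19 and -0.17. Between 800 and 1500 bases 2 of 19 members were lower, against 22.9% of all genes, and from 1500 bases 0 of 16 were lower, against 18.7%. The share of short members called lower was near that of other short genes.

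**Figure D3:**
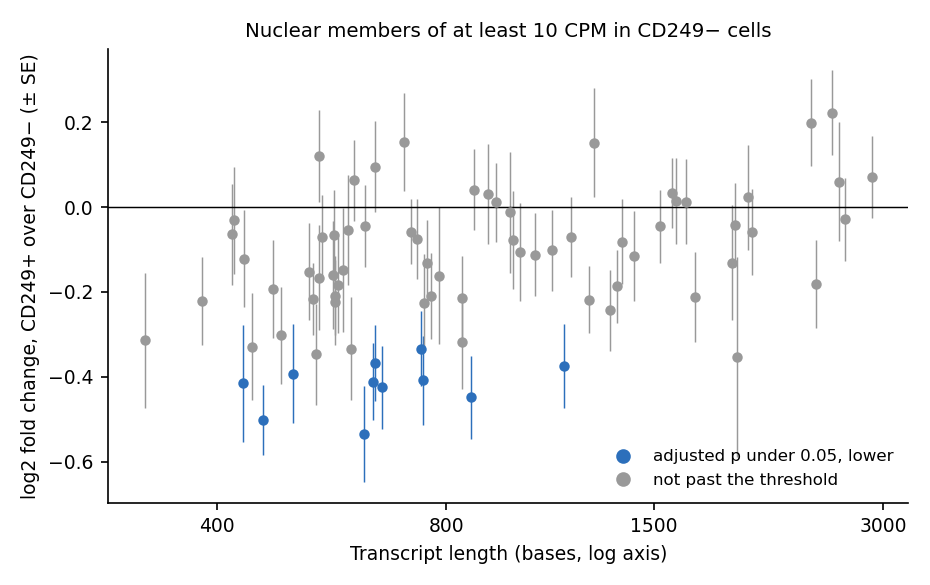
Log2 fold change, CD249+ over CD249- (vertical axis, bars are the standard error), against transcript length in bases (log axis) for the 76 nuclear members of at least 10 CPM in CD249- cells. The blue genes, called lower, all lie between 433 and 1142 bases. Cox6b2 and Cox8b, called higher, fall below the limit on CD249- cells and are not drawn.

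The 13 genes of the mitochondrial genome were all lower in CD249+ cells on average, but they varied widely between mice. Their summed level was 6512, 11741, 13769 and 8425 CPM in the CD249- libraries of mice 2, 7, 8 and 10, and 5992, 8187, 8821 and 6506 CPM in the CD249+ libraries. The fractions overlapped, because mice 7 and 8 were high in both, yet the CD249+ library was below its own CD249- library in 4 of 4 mice. The ratio within a mouse was 0.920 in mouse 2, 0.697 in mouse 7, 0.641 in mouse 8 and 0.772 in mouse 10. The 83 nuclear members summed to 6600 ± 374 and 6198 ± 305 CPM (SD, n = 4), with a median ratio of 0.938 within a mouse. Haemoglobin transcripts were also high in mice 7 and 8, at 497 and 502 CPM in CD249- and 129 and 366 CPM in CD249+ cells, against 12.1 to 26.8 CPM in mice 2 and 10. Under the mouse block Hba-a1, Hba-a2 and Hbb-bs were lower in CD249+ cells (edgeR adjusted p = 0.00269, 0.0173 and 0.0369). The part of blood cells in the mitochondrial difference was not tested.

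**Figure D4:**
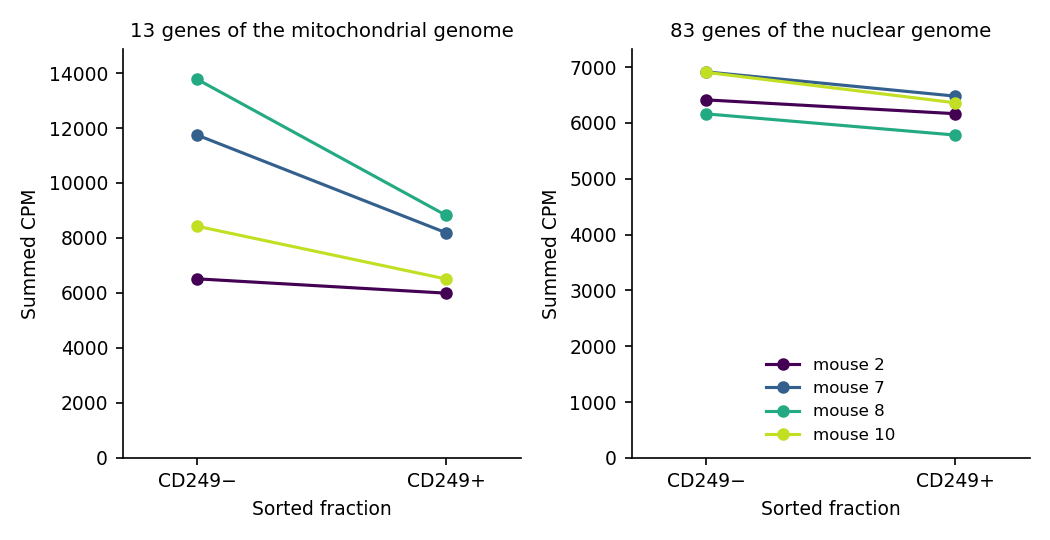
Summed CPM of the 13 mitochondrial and the 83 nuclear members in each library, with a line joining the CD249- and CD249+ libraries of each mouse. The mitochondrial sum is lower in CD249+ cells in each of the 4 mice, at 8821 against 13769 CPM in mouse 8 and 5992 against 6512 CPM in mouse 2.

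Only mt-Nd3, a complex I subunit, was called without regard to mouse. It was measured at 50.6, 97.6, 87.0 and 63.7 CPM in the CD249- libraries of mice 2, 7, 8 and 10 and at 39.9, 57.9, 49.9 and 39.9 CPM in the CD249+ libraries, and fell by 0.67 on the log2 scale (SE 0.21, edgeR adjusted p = 0.0363). The fractions overlapped, although it was lower in 4 of 4 mice. Without the block, 9 of the 13 genes had an unadjusted p under 0.05 by edgeR, where 5990 of all 14524 genes tested did. With the mouse as a block, 12 of 13 were called lower by edgeR, where 17.1% of all genes were. The exception was mt-Co1, the catalytic subunit of complex IV (log2 fold change -0.18, adjusted p = 0.168 with the block). The count without the block was 10 without the CD249- library of mouse 2, 5 without mouse 2, and 0 without mouse 7, 8 or 10. It was also 0 when CD249+ cells of mouse 2, 8 or 10, or CD249- cells of mouse 7 or 8, were left out. It was 12 in mice 7 and 8 alone and 0 in mice 2 and 10 alone. Over all genes, lower calls were 2013 in the full fit, 1748 without the CD249- library of mouse 2 and 1828 without mouse 2. They were 1341, 1201 and 1291 without mouse 7, 8 or 10, and 1563 to 1979 where leaving out a single library gave 0. In mice 7 and 8 alone they were 1251, and in mice 2 and 10 alone 98.

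By complex, the 7 complex I genes (mt-Nd1 to mt-Nd6 and mt-Nd4l) had log2 fold changes from -0.67 to -0.45, without the block. mt-Cytb, the only complex III subunit of this genome, was at -0.56 (SE 0.23, edgeR adjusted p = 0.0954; 0.00317 with the block). mt-Atp6 and mt-Atp8 of the ATP synthase were at -0.56 and -0.57, with adjusted p of 0.00255 and 0.00229 by edgeR with the block. These neighbours share 43 bases, so reads there can be split between them. The 3 complex IV genes were less alike: mt-Co2 was at -0.54, mt-Co3 at -0.39 and mt-Co1 at -0.22 (edgeR adjusted p = 0.0981, 0.290 and 0.493).

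Within the mitochondrial counts the mix of genes differed as well. mt-Co1 took 18.5, 17.8, 17.8 and 18.3% of the counts of the 13 genes in the CD249- libraries of mice 2, 7, 8 and 10. In the CD249+ libraries it took 21.4, 20.8, 20.7 and 22.2%. The fractions did not overlap, and the share was higher in 4 of 4 mice. mt-Atp6 went the other way, from 16.5% ± 0.235 to 15.4% ± 0.176, and mt-Cytb from 14.8% ± 0.577 to 13.7% ± 0.463 (SD, n = 4), each lower in 4 of 4 mice. Shares within a sum move against each other, so they show unequal change and not which gene changed.

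**Figure D5:**
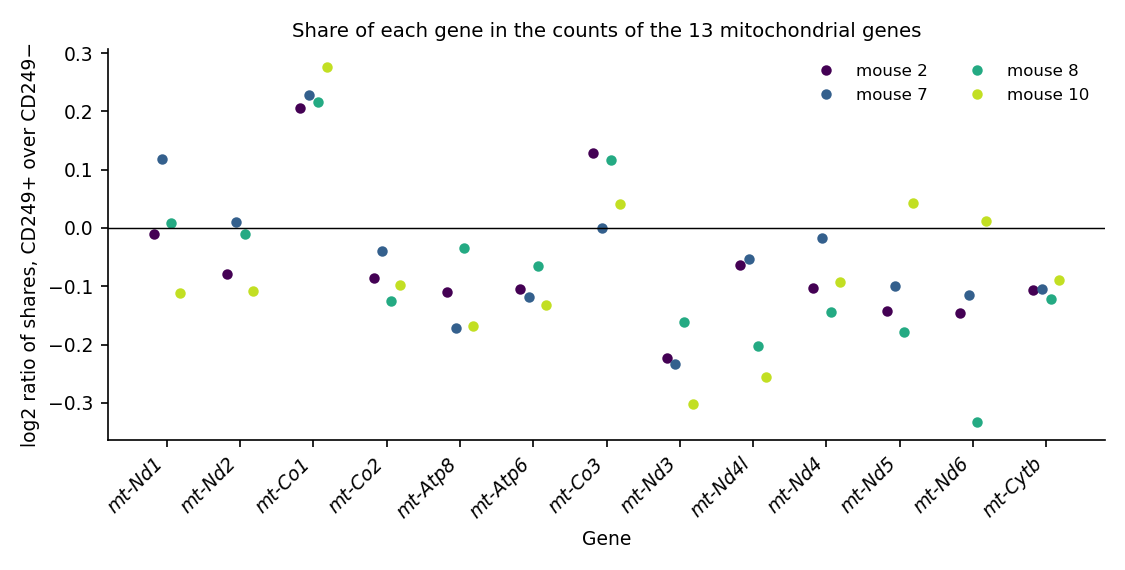
Log2 ratio of the share of each gene in the counts of the 13 mitochondrial genes, CD249+ over CD249- (vertical axis), 1 point per mouse. All 4 points of mt-Co1 lie above 0, as its share was 18.1% in CD249- and 21.3% in CD249+ cells, and all 4 points of mt-Cytb, mt-Atp6, mt-Atp8 and mt-Nd3 lie below 0.

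Per transcript length, the most abundant members were mitochondrial. In CD249- cells mt-Atp6 was at 2452 ± 779 CPM per kilobase, mt-Co3 at 2206 ± 769, mt-Co2 at 1624 ± 513 and mt-Co1 at 1180 ± 359 (SD, n = 4). Lowest among the 13 was mt-Nd6, the single one encoded on the other strand, at 138 ± 47.2 CPM per kilobase. The most abundant nuclear members per length were Atp5b at 361 ± 22.2 and Cox6a1 at 293 ± 16.1 CPM per kilobase. mt-Atp6 and mt-Co3 were closer than their spread over mice, as were neighbours in the run from mt-Co2 through mt-Atp8 and mt-Cytb to mt-Co1. A gap wider than either SD lay between mt-Co1 and mt-Nd1, at 538 ± 175 CPM per kilobase. Reverse transcription was primed with oligo(dT), per the labels' protocols, and the part of tail length in these levels was not tested.

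Assembly factors and genes that serve the chain were mostly uncalled too. Of all genes tested, 16.9% were called higher and 13.9% lower. For complex I, 0 of 15 assembly factors tested were called by edgeR, with 0 also under the block. Sdhaf1, for complex II, was lower (log2 fold change -0.62), and Ttc19, for complex III, was higher (0.55). With the block Uqcc3, for complex III, was also lower (edgeR adjusted p = 0.0495). For complex IV, Coa5 was higher (0.33) and Cox14 lower (-0.31) among 21, and for the ATP synthase Atpaf1, a chaperone of the catalytic head, was lower (-0.68) among 4. Hccs, which attaches haem to cytochrome c, was lower (-0.52), while Cycs was not called. Cyc1, a core subunit of complex III whose symbol the rule does not match, was not called either. Of 11 ubiquinone genes Coq10b, which binds ubiquinone, was higher at 42.8 ± 2.65 against 86.0 ± 16.7 CPM (SD, n = 4; edgeR adjusted p = 5.60e-04).

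Carriers moved in both directions, with 14.3% of 7 genes tested higher and 42.9% lower, against 16.9% and 13.9% of all genes. The uncoupling protein family member Ucp2 fell from 509.9 ± 122 to 248.9 ± 50.6 CPM (SD, n = 4; edgeR adjusted p = 0.00284), and the outer membrane pores Vdac2 and Vdac3 were lower as well (log2 fold changes -0.34 and -0.35). Slc25a4, an ADP/ATP carrier, rose (0.43). In the citric acid cycle list, 4 of 18 genes were higher and 0 lower, 22.2% higher against 16.9% of all genes, among them Pdha1 of pyruvate dehydrogenase (84.4 ± 1.74 against 134.6 ± 11.3 CPM, edgeR adjusted p = 3.75e-04), Suclg1 (log2 fold change 0.45) and Ogdh (0.41). Under the block 5 were higher and 2 lower, with Idh2 added to the higher and Mdh2 and Idh3b to the lower genes.

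Of 29 genes for transcription and replication of mitochondrial DNA, Hsd17b10, part of the mitochondrial tRNA-processing enzyme, was higher (log2 fold change 0.62) and Slirp, an RNA-binding protein that stabilises mitochondrial messengers, was lower (-0.43). That is 3.45% in each direction, against 16.9% higher and 13.9% lower of all genes. With the block Ssbp1, which binds single-stranded mitochondrial DNA, was also lower (edgeR adjusted p = 0.0499). The mitochondrial ribosome had 0 higher and 7 lower genes among 77, led by Mrps21, Mrpl46 and Mrps18c (log2 fold changes -0.45, -0.53 and -0.59). That is 9.09% lower, against 13.9% of all genes. With the block Mrpl36 left the lower genes (edgeR adjusted p = 0.0705) and Mrpl18 joined them (0.0499). Among 12 regulators, Myc (1.41) and Hif1a (0.35) were higher, and Gabpb1, the partner of GABPA, and Nrf1 were lower (-0.69 and -0.34). The regulators' shares were 16.7% higher and 16.7% lower, near the 16.9% and 13.9% of all genes. With the block Hif1a was not called (edgeR adjusted p = 0.0507). Gabpa itself and the coactivator Ppargc1a were not called (log2 fold changes 0.01 and 0.40). RNA genes of the mitochondrial genome were not analysed here.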

How the data were processed

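The deposited values are RSEM estimated counts per gene, and 12.0% were not whole. They were rounded. Per the submitters' processing notes the authors used R 3.6.3, DESeq2 1.26.0, RSEM 1.2.28, STAR 2.6.1 and bcl2fastq 2.20. GRCh38, which they name, is a human build, whereas the table lists genes of the mouse. The build used for counting is therefore not given in the sources used here. Coordinates and transcript lengths are from GENCODE M21 (GRCm38), in which 25251 of 25509 identifiers matched without their version. Rows of 92 spike-in controls, all at 0, were left out.

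Genes were filtered with filterByExpr, scaled by TMM and tested with edgeR 4.0.16's quasi-likelihood test on the sorted fraction (R 4.3.3, two-sided, Benjamini-Hochberg over all genes, 0.05). CPM values use the TMM-scaled totals. The test was checked on simulated counts. Alternatives were other scalings, no filter, DESeq2 1.42.0, limma-voom (limma 3.58.1), the mouse as a block, and leaving out libraries or mice. Same-mouse libraries deviated together (r 0.112 to 0.260, different mice -0.195 to 0.0457) and come from the same lung, so the numbers pair the samples. Promoter windows matched 70 of 83 nuclear genes by Ensembl identifier, else by symbol or unique synonym. Named were all mitochondrial genes, up to 5 called genes per direction and complex with the smallest p, all isoform sets and Sdh genes, and up to 3 called genes per direction of each pathway list. Members and lists were chosen with earlier results of these data known.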

Additional observations from a re-analysis of the deposited data

Results flagged for a closer look

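In 76 groups of 4 libraries, 3 had a library set apart from the other three by more than Dixon's 95% limit for 4 values, where chance marks about 1 in 20. Cox5a was at 61.0 CPM in the CD249- library of mouse 7, against 57.6 to 58.0 CPM in the others. Cox6a2 was at 0.751 CPM in the CD249- library of mouse 8, against 0.398 to 0.450 CPM. Cox6a2 was also at 3.32 CPM in the CD249+ library of mouse 10, against 0.142 to 0.566 CPM.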

How the results depend on the processing

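None of the 38 genes followed changed direction while called in any alternative, and Cox6b2 passed the test in all of them. With library size as the only scaling, 25 nuclear and 4 mitochondrial genes were lower and the nuclear median was -0.22. DESeq2 called 7 mitochondrial genes lower and the mouse block called 12. The block, the paired analysis, called 3 nuclear genes higher and 16 lower. Without the filter on low counts 3 nuclear genes were higher, Cox7b2 being added. In mice 7 and 8 alone, chosen after seeing the data, 2 nuclear and 12 mitochondrial genes and 1251 genes in all were lower. In mice 2 and 10 alone, also chosen after seeing the data, 1 nuclear gene was higher, 0 nuclear and 0 mitochondrial genes were lower, and 570 genes in all were higher and 98 lower. These fits have fewer libraries, and neither they nor the leave-outs below had the block.

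Leaving out 1 library or mouse gave 3 to 12 lower and 2 higher nuclear genes, 0 to 10 lower mitochondrial genes, nuclear medians from -0.17 to -0.071, mitochondrial medians from -0.69 to -0.35, and 1777 to 2479 higher and 1201 to 1979 lower genes in all. The cause of the differences between libraries was not tested. With 4 libraries per fraction, single calls near the threshold depend on 1 library, and Cox8b, Cox7b2 and Cox6a2 rest on few counts.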
